A study of Mus musculus with 9 samples.

Results

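The genes described here encode 10 enzymes that add methyl groups to lysine residues of histones or take them off. They are the methyltransferases Ehmt1, Ehmt2, Setdb1, Suv39h2, Kmt2a and Kmt2d and the demethylases Kdm5a, Kdm5b, Kdm1a and Kdm3a. Members were all probe sets to which the array's platform table gave exactly 1 of these symbols, 26 of 45101 probe sets and 10 of 18193 genes so named on the array. A probe set reports 1 region of a transcript. Of the 26, 20 passed a filter on low signal, at least 1 for each of the 10 genes. The genes were selected on their symbols with earlier differences from control on these same arrays in view, so their own differences are a description and nothing rests on their calls.

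Expression was measured on 9 Affymetrix arrays of spermatogonia from testes of adult Balb/C mice. The groups, with 3 arrays each, were VAD at 18 weeks and VAD at 25 weeks (mice fed a vitamin A-deficient diet for that time) and a control group on a normal diet. Each preparation pooled the testes of 2 mice, plated the cells overnight and separated germ cells by sedimentation, and its stated purity was above 90%. No sort by a cell marker is described, and ages beyond adult are not given. Whether the arrays of a group came from separate preparations is not stated, so p-values measure only the spread between these arrays, which may be technical.

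Methylation of lysine 4 of histone H3 (H3K4) marks active promoters and enhancers. Methylation of lysine 9 (H3K9) marks silent chromatin and is read by heterochromatin protein 1. Writers and erasers of both marks act throughout male germ cell development, in which chromatin is remodelled for meiosis and later for packing into the sperm head. Retinoic acid, which is made from vitamin A, drives spermatogonia into differentiation. Its receptors bind the half-site AGGTCA in DNA.

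The promoters of 3 members are shown as examples of the range of differences from control at 25 weeks. Of the 2 Kmt2d probe sets, 1 had the highest difference of the 20 past the filter (1.23) and 1 the lowest (-1.01). Both Ehmt2 probe sets lay below control, and Kdm1a hardly differed. The windows run from 250 bases before to 50 bases after the RefSeq transcript start, on build GRCm38.p6. Kmt2d lies at chr15:98871156-98871455 on the minus strand, Ehmt2 at chr17:34898224-34898523 on the plus strand and Kdm1a at chr4:136602674-136602973 on the minus strand. Ehmt2 had another window, at chr17:34898720-34899019 and with 4 GC boxes, which is not shown. Capitals mark GC boxes (GGGCGG or CCGCCC, the binding site of Sp1) and the half-site (AGGTCA or TGACCT).
Kmt2d: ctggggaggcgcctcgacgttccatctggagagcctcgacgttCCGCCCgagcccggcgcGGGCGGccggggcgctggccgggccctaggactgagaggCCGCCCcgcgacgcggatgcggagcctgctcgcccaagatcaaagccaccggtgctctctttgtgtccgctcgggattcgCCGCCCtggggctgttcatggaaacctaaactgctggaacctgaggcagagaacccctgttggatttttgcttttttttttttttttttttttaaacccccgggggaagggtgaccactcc
Ehmt2: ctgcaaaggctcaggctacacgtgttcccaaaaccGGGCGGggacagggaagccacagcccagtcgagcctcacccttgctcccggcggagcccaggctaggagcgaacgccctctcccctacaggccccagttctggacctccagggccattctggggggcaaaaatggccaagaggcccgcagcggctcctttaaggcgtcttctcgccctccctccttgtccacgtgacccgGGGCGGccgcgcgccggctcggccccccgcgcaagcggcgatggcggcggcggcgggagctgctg
Kdm1a: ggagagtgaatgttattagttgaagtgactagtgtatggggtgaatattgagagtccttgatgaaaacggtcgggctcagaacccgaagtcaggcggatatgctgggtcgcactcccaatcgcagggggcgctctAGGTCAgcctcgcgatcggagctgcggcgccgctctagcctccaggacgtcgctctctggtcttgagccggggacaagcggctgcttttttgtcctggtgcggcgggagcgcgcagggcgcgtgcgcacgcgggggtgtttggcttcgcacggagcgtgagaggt

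RefSeq windows were matched for 9 of the 10 members, 12 windows in all, and Kdm5a had none. A GC box on either strand stood in 10 of the 12 windows, against 35.7% of 32851 mouse windows of the same length. The member windows were also richer in CpG (C followed by G), with a median of 28.5 against 7 over all windows. The GC box itself contains a CpG, and its share in windows of like CpG content was not computed. Kdm3a and Ehmt2 had several windows each, and 2 of Kdm3a overlapped, so the 12 are not separate cases. Nothing is read from the higher share of GC boxes. The half-site stood in 2 of the 12, those of Ehmt1 and Kdm1a, against 16.3% of all windows. The direct repeat of the half-site with a spacer of 5 bases, a preferred form of the retinoic acid response element, stood in 0 of the 12, against 0.0091% of all windows. These matches describe the letters in the windows and say nothing of binding.

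The 9 arrays differed in brightness. VAD 25-week replicate 3 and control replicate 3 had trimmed mean signals of 23.3 and 23.0, against 55.6 to 186 on the other 7 arrays, and are called the dim pair. The other VAD 25-week arrays, replicates 1 and 2, carried poly-A control signal of 270 and 338 on average, against at most 10.6 on every other array, so their handling cannot be told apart from the diet.

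Markers of the labelled and of other testis cells were summed in normalised signal. Undifferentiated spermatogonia markers (4 of 8 past the filter) summed to 505 to 621 in VAD 18-week arrays and 616 to 720 in VAD 25-week arrays, against 304 to 349 in control arrays. Differentiating spermatogonia markers (6 of 6) summed to 1204 to 1256 in VAD 18-week arrays and 560 to 803 in VAD 25-week arrays, against 816 to 1729 in control arrays. Yet the median 25-week difference of this list was 0.26, with 1 marker called higher and 1 lower. The lower sum at 25 weeks therefore does not hold for its markers in general. For the undifferentiated list the median was 0.52, with 1 called higher and 0 lower. Spermatogonial markers were therefore measured in every group, although Ret, Nanos2, Sall4 and Lin28a lay below the filter. Pachytene spermatocyte and spermatid markers, given below, summed to at least 3867 in every array, above the highest spermatogonial sum of 1729. Sums of different genes do not measure shares of cells. The member signals can still not be assigned to spermatogonia alone. Sertoli cell markers (10 of 12, without Amh and Sox9) summed to 549 to 1608 in VAD 18-week arrays and 607 to 1279 in VAD 25-week arrays, against 181 to 230 in control arrays. Leydig cell markers (4 of 6, without Insl3 and Lhcgr) summed to 119 to 530 in VAD 18-week arrays and 272 to 301 in VAD 25-week arrays, against 32.3 to 132 in control arrays. The Sertoli and undifferentiated spermatogonia sums were higher in each VAD array than in each control array, as was the Leydig sum at 25 weeks. Of the 10 Sertoli markers, 5 at 18 weeks and 8 at 25 weeks were called higher. Macrophage markers (5 of 6) summed to 126 to 179 in VAD 18-week arrays and 199 to 312 in VAD 25-week arrays, against 108 to 260 in control arrays. Pachytene spermatocyte markers (8 of 8) summed to 23375 to 25219 in VAD 18-week arrays and 20491 to 21517 in VAD 25-week arrays, against 19094 to 25035 in control arrays, and spermatid markers (8 of 8) to 7153 to 11814 and 3867 to 14469 in the same VAD groups, against 5782 to 15034 in control arrays. Peritubular myoid markers (2 of 4, without Tagln and Cnn1) summed to 88.8 to 302 in VAD 18-week arrays and 161 to 352 in VAD 25-week arrays, against 83.1 to 231 in control arrays. These last 4 sums overlapped between VAD and control arrays, yet single markers differed at 25 weeks. Called were 4 of 5 macrophage markers, all higher, 5 of 8 pachytene markers (2 higher, 3 lower), 3 of 8 spermatid markers, all lower, and 1 of 4 Leydig markers, higher. At 25 weeks the median difference was 1.06 for the macrophage list and 1.02 for the myoid list, with 0 called. It was 1.29 for the Leydig list and 1.88 for the Sertoli list. No probe set was listed at 0. The part of these other cells in the differences below was not tested, and more cells of a type cannot be told apart from more RNA per cell.

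Values below are quantile-normalised log2(signal + 3.26), where 3.26 is the 25th percentile of all signals. Differences are in log2 units, from a limma model with group and a block for the dim pair, with SE and n = 3 arrays a group. A probe set is said to be called where its Benjamini-Hochberg adjusted p over all 27022 probe sets past the filter is under 0.05. The block was chosen with earlier results known, and with group as the sole term 0 probe sets of the array were called in either comparison with control. At an unadjusted p under 0.05 that plain model held 1958 probe sets at 18 weeks and 3209 at 25 weeks, 2 of the 20 members in each.

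In VAD at 25 weeks against control, of 20 member probe sets, 4 were called higher (Kmt2d, Kdm5a, Kdm5b and Kdm3a, 1 probe set each) and 1 lower (Ehmt2). Over all probe sets 14.9% were called, 2308 (8.54%) higher and 1709 (6.32%) lower, and on the deposited scale the split was 10571 to 7. Because the members were chosen with results known, nothing is read from their 5 calls. The members' median difference was 0.11, against -0.01 over all probe sets. At 18 weeks 0 of the 20 were called, against 1.47% of all probe sets (1.33% higher, 0.133% lower), and the members' median was -0.03, against -0.01 over all. Both comparisons share the control arrays, so their likeness is not evidence of its own.

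**Figure D1:**
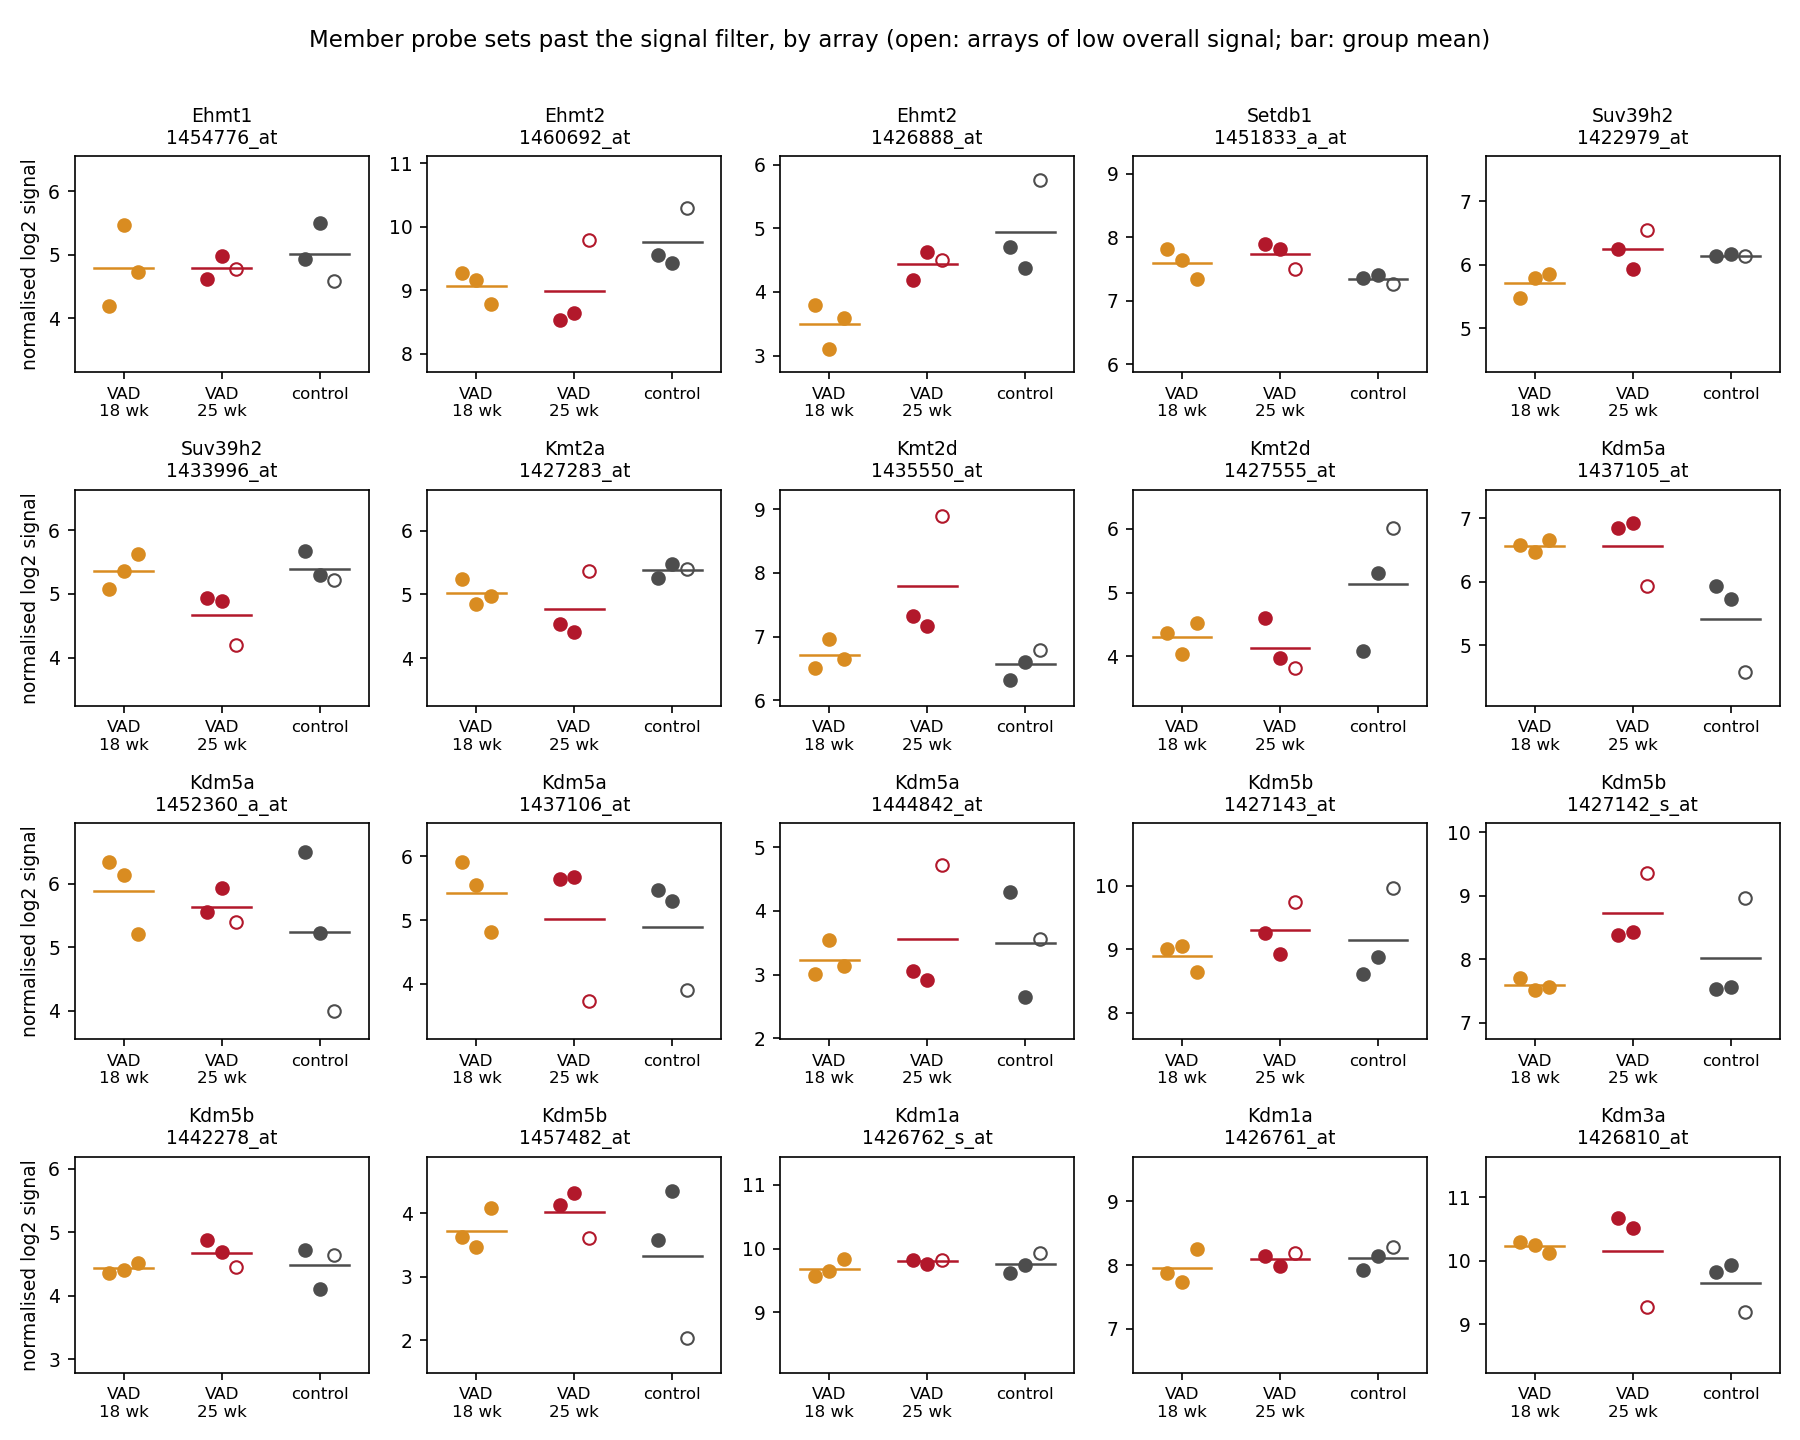
Normalised log2 signal (vertical axis, each panel spanning the same width) of the 20 member probe sets past the filter, 1 point an array, with VAD 18 weeks, VAD 25 weeks and control from left to right, open points for the dim pair and bars for group means. Kdm5b 1427142_s_at shows the pattern of the dim pair: control replicate 3 lies at 8.97, above the other control arrays at 7.53 and 7.56.

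Among the methyltransferases of H3K9, Ehmt2 (also called G9a), which with its partner Ehmt1 writes the mono- and dimethyl mark in euchromatin, had 2 probe sets. The brighter, 1460692_at, read 9.27, 9.16 and 8.78 in VAD 18-week arrays, 8.52, 8.64 and 9.78 in VAD 25-week arrays, and 9.55, 9.43 and 10.29 in control arrays. All VAD 18-week values lay below all control values, while at 25 weeks the array of the dim pair lay among the controls. Its difference was -0.77 ± 0.15 at 25 weeks, where it was called, and -0.36 ± 0.16 at 18 weeks, where it was not. Inside the dim pair alone the 25-week difference was -0.50, and over the other arrays it was -0.91. On the deposited scale, in which all probe sets had a median 25-week difference of 0.93, this probe set was at 0.14, so its decrease is relative to the other transcripts.

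The second Ehmt2 probe set, 1426888_at, was low, at 3.80, 3.10 and 3.59 in VAD 18-week arrays, 4.18, 4.62 and 4.50 in VAD 25-week arrays, and 4.71, 4.37 and 5.77 in control arrays. Here the VAD 18-week arrays were the lowest, apart from both other groups. The differences were -1.24 ± 0.36 at 18 weeks and -0.52 ± 0.34 at 25 weeks, neither called. Both Ehmt2 probe sets were thus below control at both times, with the larger difference at 25 weeks in one and at 18 weeks in the other. For 1426888_at the 25-week difference was -1.27 within the dim pair and -0.14 over the other arrays. Ehmt1, reported by 1454776_at, read 4.20, 5.47 and 4.72 in VAD 18-week arrays, 4.62, 4.99 and 4.77 in VAD 25-week arrays, and 4.93, 5.50 and 4.59 in control arrays. The 3 groups overlapped throughout, with differences of -0.32 ± 0.36 and -0.22 ± 0.34 at 18 and 25 weeks.

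Setdb1, which writes the trimethyl mark over retroelements with the corepressor Trim28, was measured by 1451833_a_at, since its other 2 probe sets were below the filter. It read 7.82, 7.64 and 7.34 in VAD 18-week arrays, 7.89, 7.82 and 7.50 in VAD 25-week arrays, and 7.35, 7.41 and 7.26 in control arrays. All VAD 25-week values lay above all control values, by a narrow margin, and the VAD 18-week values overlapped the controls. The differences of 0.18 ± 0.17 at 18 weeks and 0.40 ± 0.16 at 25 weeks were not called.

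Suv39h2, which writes the trimethyl mark of heterochromatin and is enriched in mouse testis, had 2 probe sets past the filter that differed from each other at 25 weeks. By 1422979_at it read 5.47, 5.80 and 5.85 in VAD 18-week arrays, 6.25, 5.93 and 6.54 in VAD 25-week arrays, and 6.14, 6.17 and 6.13 in control arrays. By 1433996_at it read 5.08, 5.35 and 5.62 in VAD 18-week arrays, 4.94, 4.89 and 4.20 in VAD 25-week arrays, and 5.68, 5.30 and 5.22 in control arrays. The first was lowest at 18 weeks, with differences of -0.37 ± 0.22 at 18 weeks and 0.10 ± 0.20 at 25 weeks. The second was lowest at 25 weeks, where all 3 arrays lay below all control arrays (-0.73 ± 0.24, against -0.21 ± 0.26 at 18 weeks). None of these was called. Across the H3K9 methyltransferases, 5 of 6 probe sets lay below control at 18 weeks and 4 of 6 at 25 weeks, with medians of -0.34 and -0.37.

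The methyltransferases of H3K4 gave opposite values within 1 gene. Kmt2d, the large enzyme that places the monomethyl mark at enhancers, had its brighter probe set, 1435550_at, at 6.51, 6.96 and 6.65 in VAD 18-week arrays, 7.32, 7.17 and 8.90 in VAD 25-week arrays, and 6.32, 6.59 and 6.79 in control arrays. All VAD 25-week values lay above every value of the other groups, and the highest came from the dim pair. The difference was 1.23 ± 0.25 at 25 weeks, called, and 0.47 ± 0.27 at 18 weeks, not called. It was 2.11 within the dim pair and 0.79 over the other arrays, and without the dim pair the fit gave 0.84.

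The second Kmt2d probe set, 1427555_at, read 4.37, 4.03 and 4.52 in VAD 18-week arrays, 4.60, 3.98 and 3.82 in VAD 25-week arrays, and 4.08, 5.31 and 6.02 in control arrays. Its control values were spread widely and overlapped those of both VAD groups. The differences were -0.69 ± 0.45 at 18 weeks and -1.01 ± 0.43 at 25 weeks, opposite in sign to the brighter probe set and not called. At 25 weeks the difference was -2.20 within the dim pair and -0.41 over the other arrays. The 2 probe sets thus give Kmt2d no single direction.

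Kmt2a (also called Mll1), a maintainer of Hox gene expression, read 5.24, 4.84 and 4.97 in VAD 18-week arrays, 4.54, 4.41 and 5.36 in VAD 25-week arrays, and 5.25, 5.49 and 5.40 in control arrays by 1427283_at. VAD 18-week values lay just below the controls, and at 25 weeks the array of the dim pair was at the control level. The differences were -0.21 ± 0.27 at 18 weeks and -0.61 ± 0.26 at 25 weeks, not called. The second was -0.03 within the dim pair and -0.89 over the other arrays, and a fit that left the pair out gave -0.98, called. Its other probe set was below the filter.

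**Figure D2:**
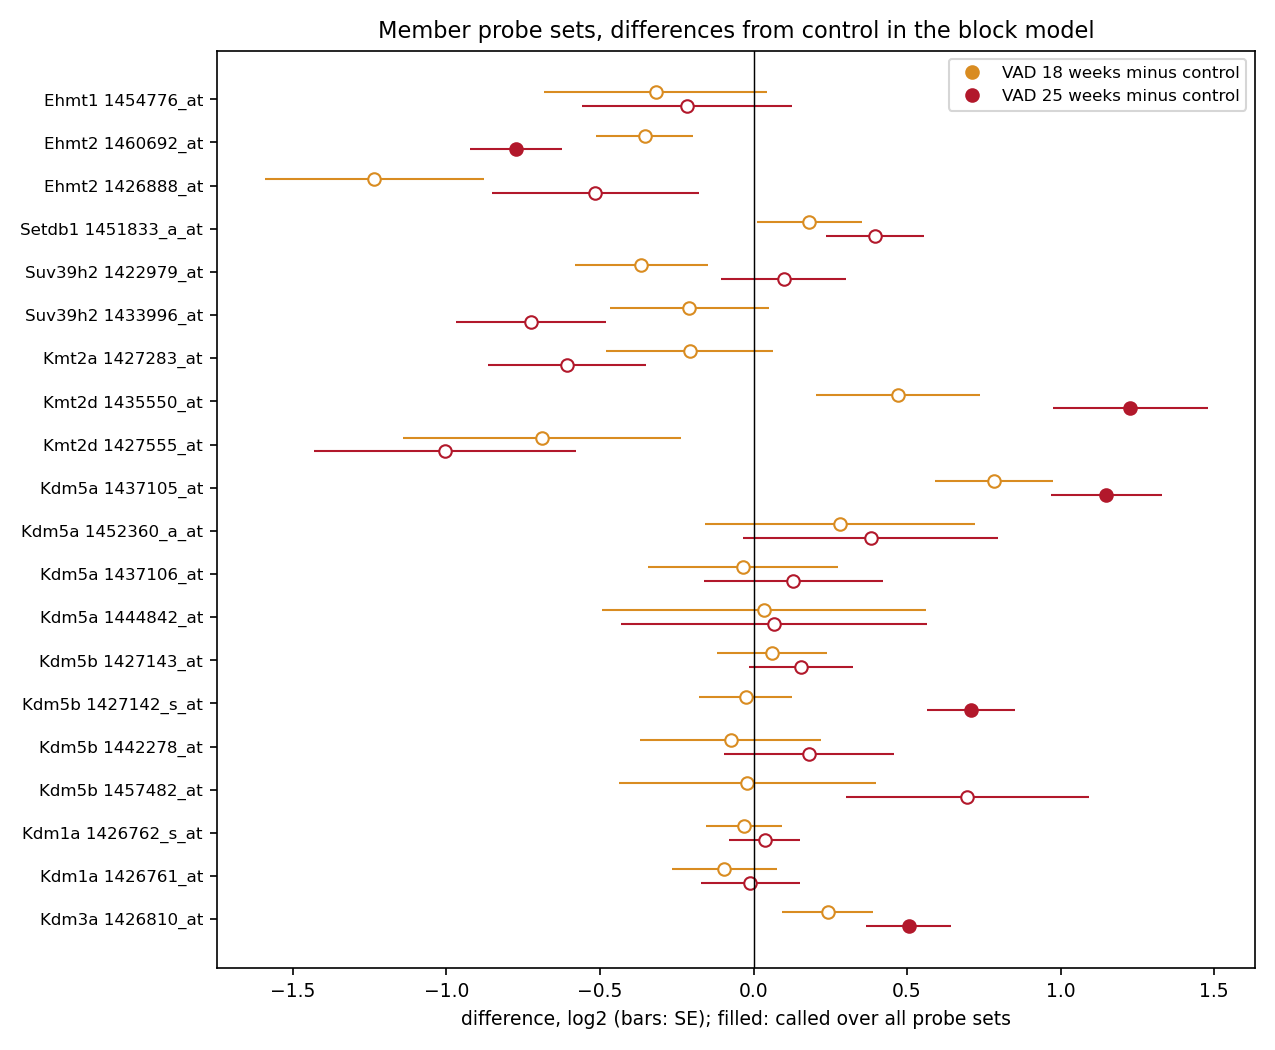
Difference from control in log2 units (horizontal axis, bars for SE, n = 3 arrays a group) of each of the 20 member probe sets in the block model, with VAD 18 weeks above VAD 25 weeks in each row and filled points for probe sets called over all 27022. The probe sets of Kmt2d fall on opposite sides of 0, at 1.23 and -1.01 at 25 weeks, and the probe sets of Kdm1a lie near 0 at both times, from -0.09 to 0.04.

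Among the demethylases of H3K4, Kdm5a (also called Jarid1a), which removes the di- and trimethyl mark at promoters, had 4 of 6 probe sets past the filter. Its 1437105_at read 6.58, 6.46 and 6.66 in VAD 18-week arrays, 6.85, 6.92 and 5.93 in VAD 25-week arrays, and 5.94, 5.73 and 4.58 in control arrays. VAD 18-week arrays agreed closely and lay above all controls. At 25 weeks the array of the dim pair was level with the highest control, while it was above the control of the pair. The differences were 0.78 ± 0.19 at 18 weeks, not called, and 1.15 ± 0.18 at 25 weeks, called. At 25 weeks both sets of arrays gave like values, 1.35 within the dim pair and 1.05 over the others. Without the dim pair the 18-week difference was 0.80 and was called, the sole member called at that time.

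The other Kdm5a probe sets did not share this size. Their differences at 25 weeks were 0.38 ± 0.42 for 1452360_a_at, 0.13 ± 0.29 for 1437106_at and 0.07 ± 0.50 for 1444842_at. At 18 weeks they were 0.28 ± 0.44, -0.03 ± 0.31 and 0.03 ± 0.53 in the same order. The probe set 1437106_at derives from the same sequence record as 1437105_at, and in the dim pair it read 3.73 in the VAD 25-week array and 3.90 in the control array, against 4.81 to 5.92 on the other 7 arrays. The faint 1444842_at, with a mean of 3.43, lay just inside the filter of 3.39, and the brightest member outside it was 1458215_at of Setdb1 at 3.29.

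Kdm5b (also called Jarid1b) removes the same marks and is abundant in testis. Its probe set 1427142_s_at read 7.71, 7.53 and 7.57 in VAD 18-week arrays, 8.39, 8.43 and 9.36 in VAD 25-week arrays, and 7.53, 7.56 and 8.97 in control arrays. Outside the dim pair the VAD 25-week arrays stood 0.86 above control, the VAD 18-week arrays were level with control at 0.05, and inside the pair the 25-week difference was 0.39. The model gave 0.71 ± 0.14 at 25 weeks, called, and -0.03 ± 0.15 at 18 weeks. The call was lost without VAD 25-week replicate 2 (0.65). A probe set of this type may also bind other transcripts.

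The brightest Kdm5b probe set, 1427143_at, derives from the same sequence record and read 9.01, 9.05 and 8.64 in VAD 18-week arrays, 9.25, 8.92 and 9.75 in VAD 25-week arrays, and 8.61, 8.89 and 9.96 in control arrays. Its groups overlapped, with differences of 0.06 ± 0.18 at 18 weeks and 0.15 ± 0.17 at 25 weeks. The remaining pair, 1442278_at and 1457482_at, were at 0.18 ± 0.28 and 0.70 ± 0.39 at 25 weeks, not called. All 4 Kdm5b and all 4 Kdm5a probe sets were above 0 at 25 weeks, by 0.07 to 1.15. Within the dim pair 2 of 4 Kdm5b and 3 of 4 Kdm5a probe sets were above 0, and over the other arrays 4 of 4 and 2 of 4, so the shared sign of Kdm5a rests on the pair. At 18 weeks 1 of 4 Kdm5b and 3 of 4 Kdm5a probe sets were above 0.

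Kdm1a (also called Lsd1), an oxidase that removes the mono- and dimethyl mark within the CoREST corepressor, differed least. By 1426762_s_at it read 9.57, 9.65 and 9.84 in VAD 18-week arrays, 9.82, 9.75 and 9.82 in VAD 25-week arrays, and 9.62, 9.74 and 9.93 in control arrays. The 9 arrays, the dim pair included, lay within a narrow band and the groups overlapped. Its differences were -0.03 ± 0.12 and 0.04 ± 0.12 at 18 and 25 weeks. For 1426761_at they were -0.09 ± 0.17 and -0.01 ± 0.16.

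Kdm3a (also called Jhdm2a) removes the mono- and dimethyl mark of H3K9 and is needed for the packing of sperm chromatin in the mouse. Its single probe set, 1426810_at, read 10.30, 10.25 and 10.12 in VAD 18-week arrays, 10.68, 10.51 and 9.27 in VAD 25-week arrays, and 9.82, 9.93 and 9.20 in control arrays. VAD 18-week values lay above all controls, and so did those of VAD 25-week replicates 1 and 2. The dim array of that group was close to the dim control. The differences were 0.24 ± 0.15 at 18 weeks and 0.51 ± 0.14 at 25 weeks, the second called. The 25-week difference was 0.08 within the dim pair and 0.72 over the other arrays, where the VAD 25-week arrays are those with the poly-A signal. The call was lost without control replicate 1 (0.42) or 2 (0.47), without VAD 25-week replicate 1 (0.40) or 2 (0.49), and without VAD 18-week replicate 2 (0.51).

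Among the members the dim arrays often lay at the edge of their group. VAD 25-week replicate 3 lay outside the range of the other VAD 25-week arrays for 18 of the 20 probe sets, and control replicate 3 outside that of its group for 17. The offset of both dim arrays from their group had the same sign for 17. In Kdm5a 1437105_at it was -0.95 for the VAD 25-week array and -1.25 for the control array, and in Kdm5b 1427142_s_at it was 0.95 for the VAD 25-week array and 1.42 for the control array. In Kdm1a 1426762_s_at it was 0.04 for the VAD 25-week array and 0.25 for the control array. In these probe sets of Kdm5a and Kdm5b both dim arrays thus moved together, down in Kdm5a and up in Kdm5b. A shared shift of this kind is what the block in the model takes out. With 3 arrays a group, any array often lies outside the range of the others by chance. The shares over all probe sets were not computed, so nothing is read from the counts of 18 and 17. The median SD among the 3 arrays of a group was 0.25 in VAD 18-week arrays and 0.41 in VAD 25-week arrays, against 0.46 in control arrays.

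**Figure D3:**
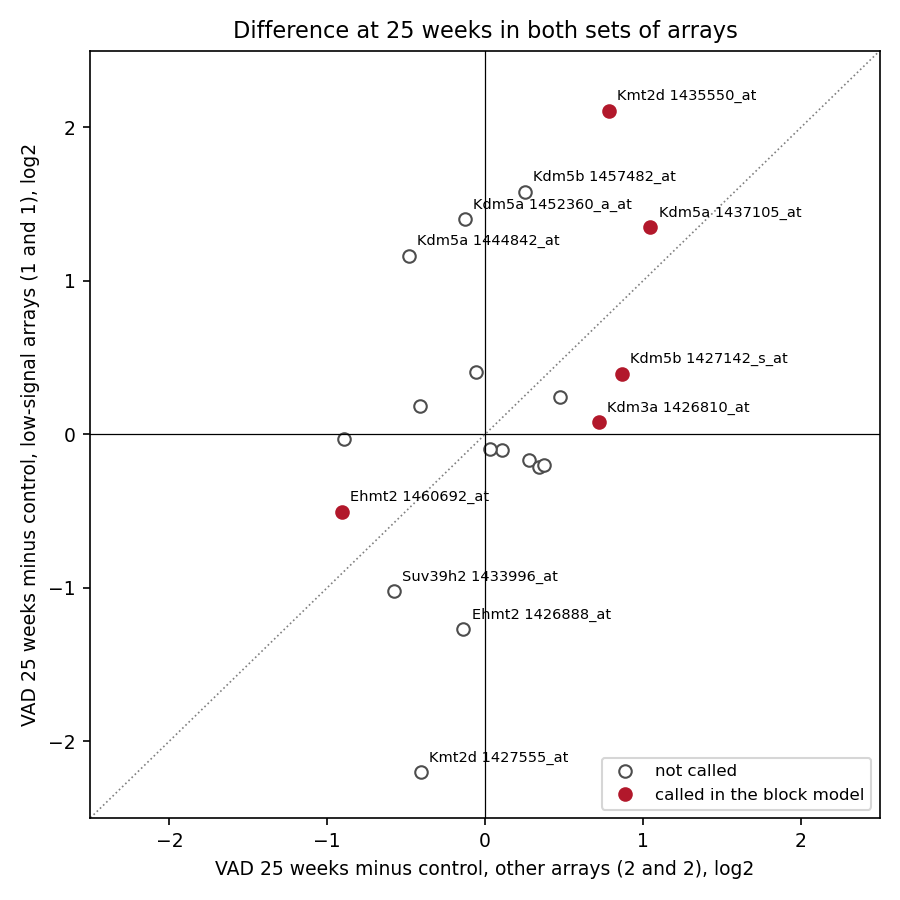
Difference between VAD 25 weeks and control in log2 units within the dim pair (vertical axis, 1 array of each group) against that over the other arrays (horizontal axis, 2 of each group), 1 point for each of the 20 member probe sets, filled where called in the block model, with a dotted line of equality. The 5 called probe sets have the same sign on both axes, as do 11 of the 20, and Kdm3a lies near 0 within the pair at 0.08. The calls use both sets of arrays, so like signs of called probe sets are not separate evidence.

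The sign of the 25-week difference was the same inside and outside the dim pair for 11 of the 20 member probe sets. The share over all probe sets was not computed. It was the same for all 5 called ones, but the model's difference combines both sets of arrays. A call therefore favours like signs, and nothing is read from this agreement. Of the 5, only Kmt2d 1435550_at had VAD 25-week values apart from all control values with the dim pair included, and all 5 had them apart without it. Outside the pair 11 of the 20 members had VAD 25-week values apart from control, against 63% of all probe sets, and since the calls rest on the same arrays nothing is read from this. With a block that also set the poly-A arrays apart, 1 array a group carried the comparison, so only differences are given. For the 5 called probe sets they were 2.11 (Kmt2d), 1.35 (Kdm5a), -0.50 (Ehmt2), 0.39 (Kdm5b) and 0.08 (Kdm3a). For Kmt2d 1427555_at the difference was -2.20. Ranges that did not overlap between VAD 25 weeks and control were found for 3 of the 20, against 16.2% of all probe sets. Between VAD 18 weeks and control they were found for 6 of the 20, against 19.4% of all. Of 6 genes with several probe sets past the filter, 3 had all of them on 1 side of 0 at 25 weeks, namely Ehmt2, Kdm5a and Kdm5b.

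VAD at 25 weeks set directly against VAD at 18 weeks gave 0 called members of 20. Over all probe sets 0% were called, with 1034 at an unadjusted p under 0.05 in the plain model, 2 of them members. The members' median was 0.13, against 0.01 over all. Kmt2d 1435550_at stood at 0.76 ± 0.27, Kdm5b 1427142_s_at at 0.73 ± 0.15 and Ehmt2 1426888_at at 0.72 ± 0.36, and in these 3 all VAD 25-week arrays lay above all VAD 18-week arrays. Suv39h2 gave one probe set on each side, with 1422979_at at 0.46 ± 0.22 and 1433996_at at -0.52 ± 0.26, both with ranges apart. These are the 5 of 20 members with ranges apart, against 17.1% of all probe sets. Without the dim pair, Kdm5b 1427142_s_at was called in this comparison.

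Related genes were taken from 6 lists set by function, 80 genes in all, of which 78 were named on the array and 74 passed the filter, with 1 probe set each. At 25 weeks 8 of the 74 rose and 6 fell, and 60 did not pass, against 17.1% of all 13616 genes called (9.08% higher, 8.01% lower). At 18 weeks 1 rose and 0 fell, against 1.52% of genes (1.37% higher, 0.147% lower). The median difference of the 74 was 0.16 at 25 weeks and 0.03 at 18 weeks, against -0.03 and -0.02 over all genes. Values and limma adjusted p below come from the block model.

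Of 22 other lysine methyltransferases, 2 rose and 2 fell at 25 weeks. Nsd2, a methyltransferase of histone H3, fell by 0.83 ± 0.15 (limma adjusted p = 0.00494), and Dot1l, the enzyme of the nucleosome core surface, fell by 0.66 ± 0.16 (limma adjusted p = 0.0206). Prdm2, which has H3K9 methyltransferase activity, rose by 0.49 ± 0.13 and Smyd2 by 0.75 ± 0.22 (limma adjusted p = 0.0321 and 0.0423). Nsd2 read 8.05, 8.09 and 7.99 in VAD 18-week arrays, 7.94, 7.81 and 6.31 in VAD 25-week arrays, and 8.55, 8.54 and 7.48 in control arrays. Outside the dim pair each VAD array lay below both controls, and inside the pair the VAD 25-week array lay below the control array. On the deposited scale Nsd2 and Dot1l were at 0.22 and 0.29, and without the dim pair Smyd2 was at 0.68, about as large, and did not pass (limma adjusted p = 0.0914). At 18 weeks 0 of the 22 passed, Nsd2 being nearest at -0.58 (limma adjusted p = 0.0940).

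Of 16 other lysine demethylases, 3 rose and 1 fell at 25 weeks. Kdm4c, which removes H3K9 trimethylation, rose by 1.41 ± 0.34 (limma adjusted p = 0.0190). Kdm7a, a demethylase of repressive marks, rose by 1.24 ± 0.28, and Phf2, which acts on H3K9, by 0.50 ± 0.15 (limma adjusted p = 0.0151 and 0.0456). Kdm4c was faint, at 4.35, 4.31 and 4.74 in VAD 18-week arrays and 4.30, 4.62 and 6.02 in VAD 25-week arrays. Its control arrays read 2.48, 3.71 and 4.51 and overlapped both VAD groups. Kdm4d, an H3K9 demethylase found mainly in testis, fell by 0.83 ± 0.18 (limma adjusted p = 0.0129), and on the deposited scale it was at 0.23. Kdm7a read 6.38, 6.70 and 6.08 in VAD 18-week arrays, 6.41, 6.40 and 6.25 in VAD 25-week arrays, and 5.49, 5.77 and 4.09 in control arrays, with both VAD groups above all controls. Without the dim pair Kdm4c was at 1.45 and Phf2 at 0.46, about as large, and neither passed (limma adjusted p = 0.0507 and 0.109). At 18 weeks 0 of the 16 passed, with Kdm4c nearest at 1.40 (limma adjusted p = 0.0845).

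Among 8 arginine methyltransferases, Prmt6, which methylates histone H3 near lysine 4, rose by 1.82 ± 0.37 at 25 weeks (limma adjusted p = 0.00856), and Prmt7, which makes monomethylarginine, fell by 0.40 ± 0.12 (limma adjusted p = 0.0467). Prmt6 read 5.16, 4.89 and 5.29 in VAD 18-week arrays, 4.97, 5.23 and 5.75 in VAD 25-week arrays, and 4.00, 3.86 and 2.64 in control arrays. Both VAD groups lay above all controls, and without the dim pair Prmt6 was at 1.27 at 25 weeks and 1.28 at 18 weeks, and passed at both. Prmt7 was at 0.54 on the deposited scale. At 18 weeks 0 of the 8 passed with all arrays, with Prmt1 nearest at 1.03 (limma adjusted p = 0.0670).

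Of 28 partners of the members, 4 were called at 25 weeks (14.3%, against 17.1% of all genes) and 1 at 18 weeks (3.57%, against 1.52%). Of 8 partners and readers of the H3K9 enzymes, Cbx1, the beta form of heterochromatin protein 1, rose by 0.76 ± 0.17 at 18 weeks and 0.98 ± 0.16 at 25 weeks (limma adjusted p = 0.0477 and 0.00277). It read 7.78, 7.87 and 8.01 in VAD 18-week arrays, 8.24, 8.10 and 7.09 in VAD 25-week arrays, and 6.94, 7.21 and 6.32 in control arrays, with all VAD 18-week arrays above all controls.

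Of 11 partners of the KMT2 enzymes, Paxip1, a subunit of the Kmt2d complex, fell by 1.07 ± 0.30 at 25 weeks (limma adjusted p = 0.0329), and 0 passed at 18 weeks, Paxip1 being nearest at -1.001 (limma adjusted p = 0.142). Paxip1 was at 0.13 on the deposited scale, and without the dim pair it was at -0.56 and did not pass (limma adjusted p = 0.127). Of 9 corepressor partners of Kdm1a, Zmym2, a zinc finger protein of the CoREST complex, rose by 0.65 ± 0.19 and Phf21a, which binds unmethylated H3K4, fell by 0.52 ± 0.15 at 25 weeks (limma adjusted p = 0.0384 and 0.0402). Phf21a was at 0.51 on the deposited scale, and without the dim pair it was at -0.44 and did not pass (limma adjusted p = 0.100). Zmym2 was at 0.997 without the dim pair (limma adjusted p = 0.00232) and at -0.0213 with the block that also set the poly-A arrays apart. None of the 9 passed at 18 weeks, with Zmym2 nearest at 0.50 (limma adjusted p = 0.242).

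The calls of related genes varied in strength. With each of the 9 arrays left out in turn, 4 of the 14 genes called at 25 weeks kept their call in all 9 fits: Nsd2, Kdm7a, Prmt6 and Cbx1. The other 10 lost it in 2 to 8 fits. Kdm4d lost it narrowly without either array of the dim pair (limma adjusted p up to 0.0509). It kept it narrowly without both (limma adjusted p = 0.0480), at -0.64 in each of these fits. With 1 dim array left out the block takes up the other, so these fits are nearly the same. Kdm4c lost its call without control replicate 1 or VAD 25-week replicate 2 (limma adjusted p up to 0.0783). Dot1l (up to 0.0923) and Prdm2 (up to 0.128) lost theirs without control replicate 1 or 2 or VAD 25-week replicate 1 or 2. Paxip1 was lost without control replicate 1 or 3, VAD 18-week replicate 2, or VAD 25-week replicate 2 or 3, with differences of -1.33 to -0.54 over the 9 fits. Prmt7 (up to 0.166) and Zmym2 (up to 0.160) were lost in 6 fits each, Phf2 (up to 0.170) and Phf21a (up to 0.124) in 7 each and Smyd2 (up to 0.125) in 8. The 18-week call of Cbx1 was lost in 7 of the 9 fits (limma adjusted p up to 0.204). It was kept without either array of the dim pair and without both (limma adjusted p = 0.0165), which again are nearly the same fit.

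**Figure D4:**
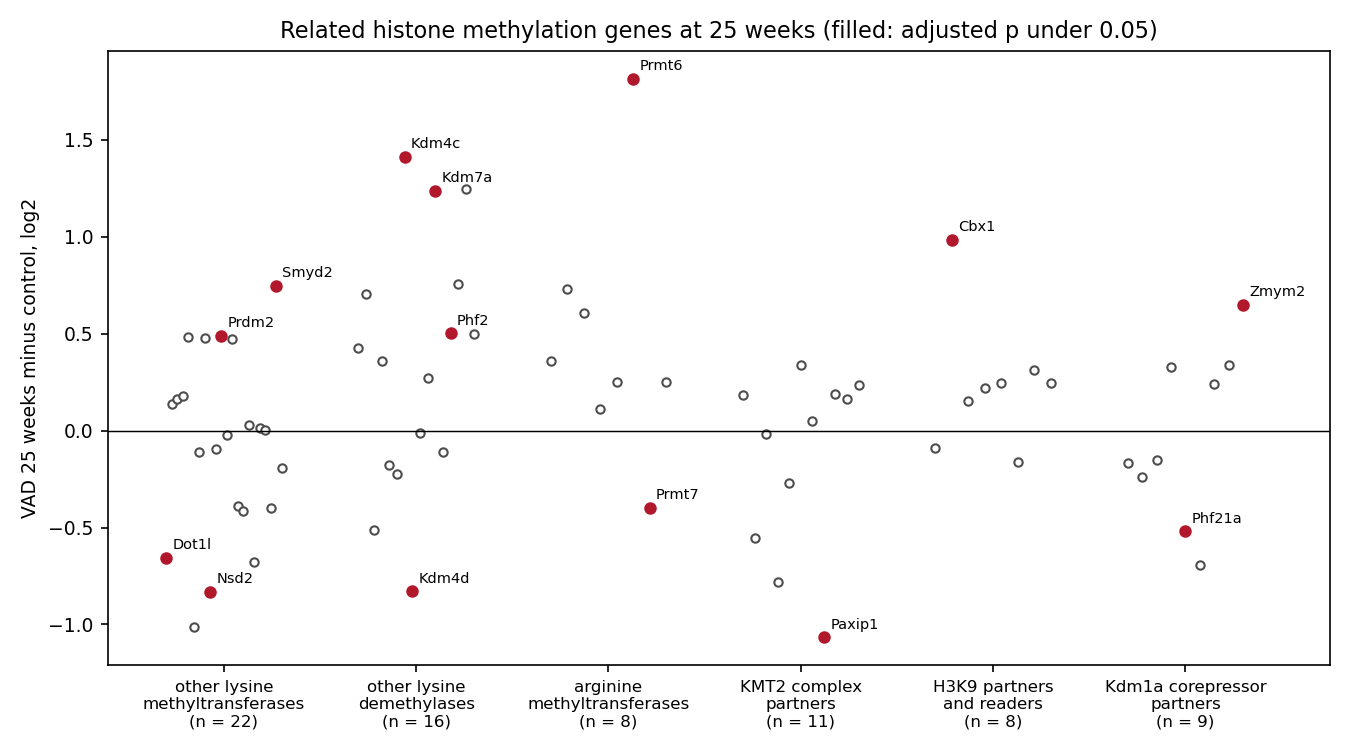
Difference between VAD 25 weeks and control in log2 units (vertical axis) for 74 related genes in 6 lists, 1 point a gene in alphabetical order within its list, filled where the adjusted p is under 0.05. The 14 filled points lie on both sides of 0, from Prmt6 at 1.82 to Paxip1 at -1.07.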

How the data were processed

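The members and lists were chosen with earlier results of these data known. Per the submitters' processing notes, the intensity values deposited for each probe set came from MAS5, and the design text names GeneChip Operating Software. Values are linear, no source used here gives the scaling target or detection calls, and 100 ng of total RNA was amplified per the labels' protocols.

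Signals were turned into log2(signal + 3.26), control probe sets (64) left out, arrays quantile-normalised, and probe sets kept whose mean reached the 40th percentile. Names came from the platform table, updated through gene identifiers (RefSeq, GRCm38.p6) for 34741 of 34945 probe sets with 1 symbol, while 932 had several and 9160 none. The tests used limma 3.58.1 (R 4.3.3; lmFit, eBayes with a trend, 5 residual degrees of freedom) over all 9 arrays. The dim pair had trimmed means under 0.5 of the median. A listed gene took the value of its brightest probe set past the filter, with _s_ and _x_ types last, and 6 of the 80 listed genes have no value here, 2 with no probe set of their single symbol and 4 below the filter. The text names all members and, per list and comparison with control, up to 4 genes past the threshold or else the nearest. Array number limits the precision.

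On simulated data over 27022 probe sets, 100 changed by 1 and 100 by 2 log2 units, the block model recovered 18 and 53 at 18 weeks (1 false call) and 22 and 64 at 25 weeks (5 false calls). Alternatives were 13 other settings and 9 fits without 1 array.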

Additional observations from a re-analysis of the deposited data

How the results depend on the processing

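Counts of called probe sets or genes are given first for members (of 20) and then for the 74 related genes, where they moved by over 1.5 times. The numbers past the filter shifted slightly in some settings. Shares in brackets are those called over all probe sets, for members, or over all genes, for related genes. With group alone, and with a replicate block in place of the dim-pair block, 0 members and 0 related genes were called at 25 weeks, and 0 related genes at 18 weeks, against 5, 14 and 1. Over all probe sets those settings called 0% and 0.0037% at 25 weeks. With a replicate block beside the dim-pair block, 7 related genes were called at 25 weeks (11.2%) and 0 at 18 weeks (0.0661%). Replicate numbers did not pair the arrays: deviations of same-numbered arrays correlated at -0.0047 to 0.690 over 9 pairs, the highest being the dim pair, and 3 of 9 arrays correlated best with their own number. A block of 3 array sets, which also separates the VAD 25-week arrays with the poly-A signal, called 3 members at 25 weeks, 1 member and 5 related genes at 18 weeks, and 1 member and 8 related genes between VAD 25 weeks and VAD 18 weeks. At 18 weeks its shares were 3.57% of all probe sets and 3.94% of all genes. This block compares VAD 25 weeks with control through 1 array each. Nothing is therefore read from its counts for VAD 25 weeks, and only differences follow. Under it Smyd1 was at 1.93 at 25 weeks and 2.59 against VAD 18 weeks, Prmt9 at -1.28 and Zmym2 at -0.0213, signs opposite to the model used above. Without the dim pair 1 member (3.98%) and 5 related genes (4.3%) were called at 18 weeks, and 1 (1.63%) and 1 (1.84%) between VAD times. On the deposited scale 11 of 19 members (39.1%) and 40 of 73 related genes (39.4%) were called at 25 weeks, all higher. It called 0 related genes at 18 weeks (0.559%), and 3 members (6.68%) and 2 related genes (6.93%) between VAD times. On that scale Ehmt2 1460692_at was at 0.14, Dot1l at 0.29, Nsd2 at 0.22, Kdm4d at 0.23, Prmt7 at 0.54, Paxip1 at 0.13 and Phf21a at 0.51, all negative after quantile normalisation. Array weights called 22 related genes at 25 weeks (27.1%). They called 1 member (4.02%) and 5 related genes (4.56%) at 18 weeks, and 2 (5.74%) and 1 (6.67%) between VAD times. Without the filter 9 (10.2%), and without the variance trend 5 (9.64%), related genes were called at 25 weeks. Pseudocounts of 1 or 16, no filter and no trend called 0 related genes at 18 weeks (0% to 1.44%). With 1 array left out the ranges were 0 to 1 members and 0 to 5 related genes at 18 weeks, 3 to 6 and 5 to 14 at 25 weeks, and 0 to 1 and 0 to 1 between VAD times. In the same order of comparisons, 0.137% to 3.86%, 6.61% to 15.5% and 0% to 1.44% of all probe sets were called. For all genes the shares were 0.176% to 4.24%, 7.81% to 17.4% and 0% to 1.63%. The causes of these moves were not tested. Of 432 values recomputed for single members at 25 weeks, 363 kept their direction and side of the threshold, 22 lost a call, 14 gained one, 1 reversed and 32 uncalled ones moved by over an SD or changed sign.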
